A study of Mus musculus with 357 samples.

Results

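Single hematopoietic stem cells of mouse bone marrow were compared by 2 transcripts that mark opposite lineage leanings, those of vwf (von Willebrand factor) and Flt3 (a receptor tyrosine kinase). A cell counted as vwf-only when its vwf reaction gave a product at a threshold cycle (Ct) of 25 or below and its Flt3 reaction did not, and as Flt3-only in the opposite case. Of 357 cells, 218 met the rule, 28.3% of all cells as vwf-only and 32.8% as Flt3-only cells. The 51 cells with both products and the 88 with neither were left out of the main comparison. The Ct is the cycle at which fluorescence crosses a threshold, so a Ct lower by 1 stands for about 1 doubling more template.

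All cells came from Col1a1-tetO-H2B-mCherry mice, in which a histone fused to a red fluorescent protein is induced and then diluted as cells divide. They were sorted as Lin-Sca1+c-kit+CD48-CD150+, either 2 or 5 weeks after labelling, onto 2 plates per time with 83 to 93 cells each. Every cell was read with 96 assays, and groups in every comparison share this genotype, tissue and sort. The labels give no gate on vWF, Flt3 or CD34 protein. No source used here gives a driver for the tetO promoter or the age and number of the mice. Repeats therefore exist only as the 4 plates, which may be technical repeats from the same animals. With 4 paired plates an exact two-sided permutation test cannot give a p below 0.12, so no test was made. An assay was instead described as differing when its difference had the same sign on all 4 plates.

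Von Willebrand factor is a clotting protein stored in platelets and endothelial cells, and its transcript in stem cells is known as a sign of a platelet and megakaryocyte leaning. Flt3 is the receptor for Flt3 ligand, and its transcript increases as stem cells become multipotent progenitors with lymphoid and myeloid potential. Both leanings are known to coexist among cells of the sorted stem cell phenotype.

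The vwf products formed a single early group, whereas Flt3 products had a late tail on the 5-week plates. In vwf-only cells the vwf Ct ran from 11.5 to 16.9 with a median of 14.8, and none was later than Ct 18. In Flt3-only cells the Flt3 Ct ran from 12.6 to 22.8 with a median of 15.6, and 13 products were later than Ct 18. These 13 were 0 and 1 on the 2-week plates and 8 and 4 on the 5-week plates. Among cells with both products the late share was larger, with 18 of 51 Flt3 products later than Ct 18. At the limit itself, the latest Flt3 product counted as detected had a Ct of 24.5, and a single product, at Ct 25.04, lay just outside. No vwf product lay near the limit, and the latest had a Ct of 17.3.

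**Figure D1:**
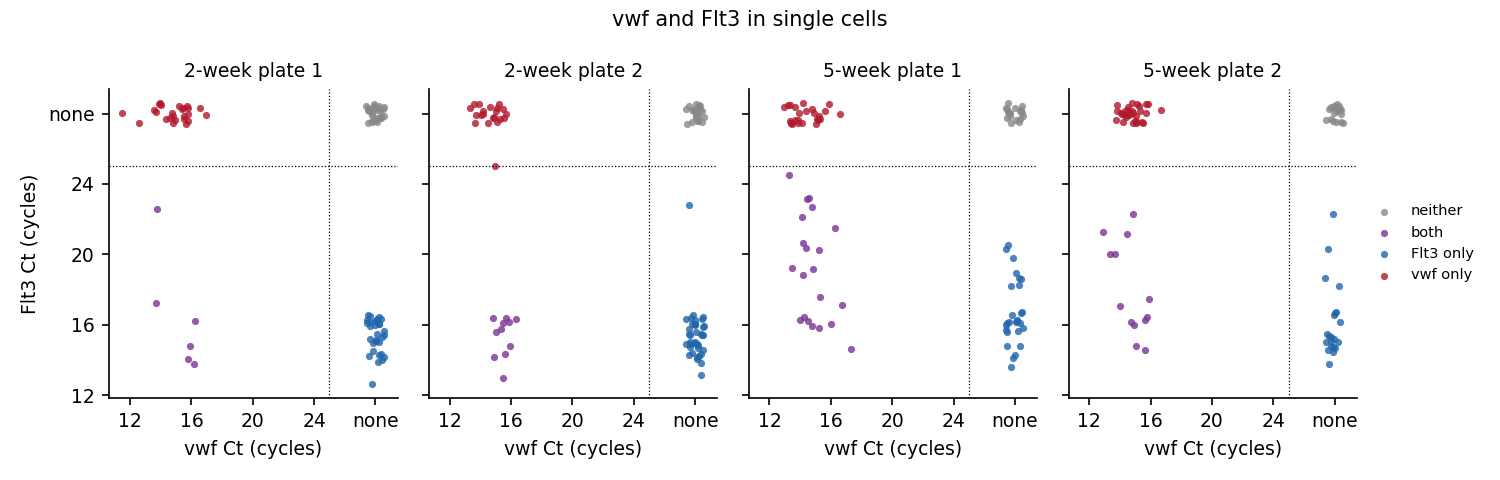
Each point is 1 cell, with its vwf Ct on the horizontal and its Flt3 Ct on the vertical axis (cycles; reactions without a product are drawn at "none"), 1 panel per plate, and the dotted lines mark Ct 25. The vwf products all lie at Ct 17.3 or below, and Flt3 products above Ct 18 are mostly on the 5-week plates.

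On the 2-week plates there were 25 and 21 vwf-only cells against 31 and 38 Flt3-only cells. On the 5-week plates there were 25 and 30 against 27 and 21. Vwf-only cells made up 25.1% of cells at 2 weeks (exact 95% interval 19 to 32.1%) and 31.6% at 5 weeks (24.8 to 39.1%). Flt3-only cells made up 37.7% (30.7 to 45.2%) and 27.6% (21.1 to 34.9%). Intervals here and below are Clopper-Pearson intervals and cover counting error only. Cells with both products made up 9.29% at 2 weeks (5.51 to 14.5%) and 19.5% at 5 weeks (13.9 to 26.2%). The counts at 5 weeks depended on late Flt3 products. With vwf and Flt3 counted only at Ct 18 or below, there were 5 and 11 such cells on the 2-week and 9 and 8 on the 5-week plates, in place of 6 and 11 and of 21 and 13. Vwf-only cells then numbered 26 and 21 on the 2-week and 37 and 35 on the 5-week plates. Since the mix of classes differed between the times, each gene was compared within its plate and the 4 differences were averaged with equal weight.

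The Kit and Cd48 transcripts followed the sort in both classes, while those of Slamf1 (CD150) and Ly6a (Sca1) were not detected in part of the cells. Slamf1 was detected in 80.2% of vwf-only and 47.9% of Flt3-only cells, and Ly6a in 74.3 and 86.3%. Kit, the stem cell factor receptor, was detected in 100% of vwf-only and 99.1% of Flt3-only cells. Hlf, a stem cell transcription factor, was detected in every cell of both. Cd48, the transcript of the excluded surface protein, was detected in 0.99% of vwf-only and 1.71% of Flt3-only cells. Of the markers listed as a check on the sort, those of mature blood cells, endothelium and stroma (such as Ptprc, Itgam, Cdh5 and Pecam1) were not among the assays. Vwf and Tek are also expressed in endothelium and Itga2b in megakaryocytes, and the part of such cells in any difference was not tested.

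Vwf-only cells also gave more products overall. They had on average 2.78 ± 1.10 (SD, n = 4 plates) more of the other assays detected than Flt3-only cells, with plate differences from 1.20 to 3.61. The mean Ct of Actb and Gapdh, 2 housekeeping transcripts found in every cell, was lower in vwf-only cells on each plate, with differences from -0.44 to -0.06 cycles. In well columns 1 to 6 lay 36 and 57.1% of vwf-only cells on the 2-week plates and 76 and 50% on the 5-week plates, against 54.8 and 47.4% and 44.4 and 61.9% of Flt3-only cells. The imbalance thus ran in opposite directions on different plates. The Ct was allowed for as a covariate in the values given beside the results, and the part of the well position was not tested.

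Of the 94 other assays, 11 (11.7%) were detected in a larger share of vwf-only cells on all 4 plates, and 5 (5.32%) in a smaller share. The median difference over the 94 assays was 2.03 percentage points, so the background leaned slightly to vwf-only cells. Equal shares on at least 1 plate kept 33 assays from being described either way, 10 of them equal on all 4 plates. The vwf-leaning genes included a stem cell surface receptor, megakaryocyte and erythroid genes, cyclin D1 and a growth suppressor, while the Flt3-leaning genes were Cd34, an enzyme of glucose use, a cytokine receptor chain and the transcription factors Ikzf2 and Nfil3.

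Promoters of 4 genes are shown first, Slamf1 and Cd34 because they had the largest difference in each direction, and Epor and Itga2b as megakaryocyte and erythroid genes higher in vwf-only cells. Each is the 250 bases upstream of the start site in RefSeq for GRCm38.p6, written 5′ to 3′ on the gene's strand. Capitals mark matches, on either strand, to 3 motifs, which do not overlap each other here. The motif of GATA factors was searched as AGATAA. That of RUNX factors was searched as TGTGGT. The PU.1 motif was searched as GAGGAA.
Slamf1, chr1:171766882-171767131, plus strand: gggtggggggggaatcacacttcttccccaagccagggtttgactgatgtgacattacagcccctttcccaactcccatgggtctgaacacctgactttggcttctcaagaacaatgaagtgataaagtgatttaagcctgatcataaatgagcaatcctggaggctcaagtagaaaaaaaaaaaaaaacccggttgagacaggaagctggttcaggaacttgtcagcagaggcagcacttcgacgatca
Epor, chr9:21963577-21963826, minus strand: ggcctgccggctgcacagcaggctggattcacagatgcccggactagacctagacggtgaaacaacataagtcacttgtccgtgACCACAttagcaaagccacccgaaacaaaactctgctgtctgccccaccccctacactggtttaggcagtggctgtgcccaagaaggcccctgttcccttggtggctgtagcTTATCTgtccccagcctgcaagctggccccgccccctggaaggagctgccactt
Itga2b, chr11:102469884-102470133, minus strand: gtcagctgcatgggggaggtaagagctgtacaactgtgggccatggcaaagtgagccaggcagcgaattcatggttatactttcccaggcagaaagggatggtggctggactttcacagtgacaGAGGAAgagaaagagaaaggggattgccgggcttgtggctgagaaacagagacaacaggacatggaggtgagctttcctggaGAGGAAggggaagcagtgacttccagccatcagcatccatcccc
Cd34, chr1:194938571-194938820, plus strand: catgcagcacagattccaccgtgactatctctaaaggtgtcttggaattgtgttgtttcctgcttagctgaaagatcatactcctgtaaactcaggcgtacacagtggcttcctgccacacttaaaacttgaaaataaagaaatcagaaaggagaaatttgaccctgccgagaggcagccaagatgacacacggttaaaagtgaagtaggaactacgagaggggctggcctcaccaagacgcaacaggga
The Epor window held the GATA letters 54 bases upstream of the start and the RUNX letters farther upstream, both read on the opposite strand. The Itga2b window held the PU.1 letters at 2 places, the nearer 44 bases upstream. No match was present in the Slamf1 and Cd34 windows. Among the other assays that differed on all plates and have a promoter in the table, the PU.1 letters were in the Gata1 and Hk3 windows, the RUNX letters in that of Hk3 and the GATA letters in that of Jun. Of 32851 promoter windows of this length, 9.99% held the GATA motif, 14.1% the RUNX motif and 23.2% the PU.1 motif on either strand. A match describes letters only, and no binding was measured.

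Among surface receptors, Slamf1 had the largest difference of the 94 assays. Slamf1 encodes CD150, the protein on which all these cells had been sorted as positive. Its transcript was detected in 100, 95.2, 64 and 66.7% of vwf-only cells on 2-week plates 1 and 2 and 5-week plates 1 and 2. In Flt3-only cells the shares were 58.1, 55.3, 25.9 and 47.6% on the same plates. Every vwf-only share lay above every Flt3-only share, including across plates. The mean difference was 34.8 ± 10.6 points (SD, n = 4 plates), with plate differences from 19 to 41.9. Pooled over plates, 80.2% of vwf-only cells (71.1 to 87.5%) and 47.9% of Flt3-only cells (38.5 to 57.3%) had the product. With the mean Ct of Actb and Gapdh as a covariate the difference was 33.8 points.

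Cd34 was the gene with the largest difference toward Flt3-only cells. It encodes a surface sialomucin present on multipotent progenitors and scarce on most long-term stem cells of adult mice. Cd34 was detected in 48, 14.3, 72 and 73.3% of vwf-only cells on the 4 plates in the same order, against 67.7, 81.6, 85.2 and 90.5% of Flt3-only cells. Flt3-only cells were higher on each plate, although the ranges over plates overlapped between classes. The mean difference was -29.3 ± 25.4 points and ranged from -67.3 on 2-week plate 2 to -13.2. Without 2-week plate 2 it was -16.7 points. With the covariate it was -31.6 points, slightly larger than without.

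The other surface phenotype genes showed smaller or mixed differences. Ly6a, which encodes Sca1, was detected in 74.3% of vwf-only and 86.3% of Flt3-only cells, and it was lower in vwf-only cells on 3 of 4 plates, with a mean of -9.46 points. On the plate that went the other way, 5-week plate 2, the difference was 1.90 points. Of the 5 surface phenotype genes, 1 was more often and 1 less often detected in vwf-only cells on all plates, beside 11.7 and 5.32% of all assays. The other 3 were not consistent, among them Kit, found in nearly every cell, and Cd48, found in very few. The median difference of the 5 genes was -1.38 points.

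Among megakaryocyte and erythroid genes, 3 of 14 measured were detected more often in vwf-only cells on all plates, beside 11.7% of all assays, and 0 less often. With the covariate it was 2 of 14, beside 13.8%. Itga2b, which encodes CD41, the platelet integrin chain, was detected in 52, 57.1, 68 and 43.3% of vwf-only cells and in 25.8, 28.9, 40.7 and 42.9% of Flt3-only cells. The first 3 plates differed by 26.2 to 28.2 points, and 5-week plate 2 by 0.48. Its mean difference of 20.5 ± 13.4 points became 15.8 with the covariate, with 1 plate then at -0.84, so that its direction no longer held on all plates. Of the Itga2b products, 81.9% were late, that is, later than Ct 18.

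Epor, the erythropoietin receptor of red cell precursors, was detected in 20, 47.6, 52 and 33.3% of vwf-only cells. In Flt3-only cells its shares were 9.68, 18.4, 22.2 and 23.8%. Vwf-only cells were higher on each plate, and the pooled shares were 37.6% (28.2 to 47.8%) and 17.9% (11.5 to 26.1%). The mean difference was 19.7 ± 11.3 points, and 15 with the covariate. Gata1, the transcription factor of red cells and megakaryocytes, was detected in 28, 19, 28 and 26.7% of vwf-only cells against 9.68, 10.5, 14.8 and 19% of Flt3-only cells. The difference was 11.9 ± 4.92 points before and 8.22 after the covariate. Counting only products at Ct 18 or below, its difference was 9.79 points and no longer the same on all plates.

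The other 11 genes of this group were not consistent over plates. Many were near saturation, such as Nfe2 (99 and 100% of vwf-only and Flt3-only cells), Gata2 (100 and 96.6%) and Runx1 (96 and 93.2%). Klf1, the erythroid Kruppel-like factor, was rare, at 8.91 and 5.98%. The median difference of the group was 1.87 points, beside 2.03 over all 94 assays.

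Stem cell associated genes gave 4 of 26 measured members higher in vwf-only cells on all plates, a share near the 11.7% of all assays, and 0 lower, with a median difference of 2.52 points. Slamf1 was 1 of the 4. Necdin (assay ndn), a growth suppressor found in quiescent stem cells, was detected in 80, 81, 84 and 66.7% of vwf-only and 58.1, 50, 59.3 and 52.4% of Flt3-only cells. All vwf-only shares of ndn lay above all Flt3-only shares. Its mean difference was 23 ± 6.91 points, and 22.2 with the covariate.

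Tek (assay TEK), the angiopoietin receptor Tie2, was detected in 64, 71.4, 80 and 66.7% of vwf-only and 38.7, 39.5, 66.7 and 61.9% of Flt3-only cells. Its 2-week differences of 25.3 and 32 points were wider than its 5-week differences of 13.3 and 4.76; a difference between times was not tested. With only cells within 1 cycle of their plate's median Actb and Gapdh Ct, the Tek difference was 18.5 points with 1 plate at -4.17. The homeobox gene Nkx2-3 (assay Nkx2.3) had a mean difference of 12.6 ± 11.8 points, but 99.2% of its products were later than Ct 18. Under that restriction of cells the Nkx2.3 difference was 8.21 points with 1 plate at -6.97. Kit and Hlf, detected in nearly every cell, could not differ in share.

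Of 8 cell cycle genes, 2 were detected more often in vwf-only cells on all plates, beside 11.7% of all assays. Ccnd1, which encodes cyclin D1 of the G1 phase, was detected in 48, 47.6, 84 and 73.3% of vwf-only cells and in 38.7, 42.1, 48.1 and 42.9% of Flt3-only cells. Its differences were 9.29 and 5.51 points at 2 weeks and 35.9 and 30.5 at 5 weeks, a mean of 20.3 ± 15.1, or 16.2 with the covariate. Of the Ccnd1 products, 63.5% were late. Under the same restriction of cells to 1 cycle, the Ccnd1 difference was 15 points with 1 plate at -0.72. Ccne1, cyclin E1, which was outside the rule for named genes, differed by 4.92 points, or 0.032 once each cell's number of detected assays was allowed for. The S phase kinase gene CDK2 differed by 9.62 points, higher on 2 plates and lower on 2, from -20.5 to 40.4.

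Cell cycle inhibitors and quiescence genes had a median difference of 4.50 points over 14 measured members, beside 2.03 over all assays, with 2 of them (ndn and Cdkn2d) higher on all plates, beside 11.7% of all assays, and 0 lower. Cdkn2d, which encodes p19 of the INK4 family, was detected in 79.2% of vwf-only and 70.1% of Flt3-only cells; the gap of 7.69 points became 4.69 with the covariate. Rb1, the retinoblastoma protein gene, differed by 15.5 points and Cdkn1c, which encodes p57, by 13.8 points, each with 3 of 4 plates higher. Of 4 immediate early genes only Jun, a component of AP-1, was higher on all plates, by 9.11 points, beside 11.7% of all assays. Of the Jun products, 15.4% were late, and Jun was equal between the classes on 1 plate under that restriction of cells. Cdkn2d then also lost its shared direction, with 1 plate at -4.09. Egr1, a zinc finger factor of the same class, differed by 10.4 points with 3 plates higher. None of the 3 Polycomb genes measured (Ezh1, Cbx6 and Cbx7) had the same direction on all plates.

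Of 9 lymphoid and multipotent progenitor genes, 2 were detected less often in vwf-only cells on all plates, beside 5.32% of all assays, and 0 more often. Besides Cd34 this was Ikzf2 (assay IKZF2), which encodes Helios of the Ikaros family. IKZF2 was detected in 48, 38.1, 44 and 40% of vwf-only and 51.6, 47.4, 74.1 and 71.4% of Flt3-only cells. The differences were -3.61 and -9.27 points at 2 weeks and -30.1 and -31.4 at 5 weeks. With cells restricted to 1 cycle as above, the mean was -15.03 points and 1 plate was at 7.54. Dntt and Ebf1 of this list were rare or absent in both classes. Dntt was detected in 8.91 and 7.69% of cells, and 94.4% of its products were late. Ebf1 was detected in 0 cells of either class, which allows up to 3.59 and 3.10% by the exact intervals.

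Csf2rb was the 1 of 7 granulocyte and monocyte genes that differed on all plates. It was lower in vwf-only cells, beside 5.32% of all assays lower and 11.7% higher. It encodes the common receptor chain for IL-3, IL-5 and GM-CSF. Its product was found in 8.00, 4.76, 12 and 13.3% of vwf-only and 25.8, 23.7, 29.6 and 19% of Flt3-only cells. All vwf-only shares lay below all Flt3-only shares, and the mean difference was -15 ± 6.23 points, or -16.2 with the covariate. No Csf2rb product was late. Cebpa, a factor needed for granulocytes, differed by -1.48 points, and Csf1r, a macrophage growth factor receptor, by 1.13 points, both with mixed directions. Cebpb was detected in 27.7% of vwf-only and 17.1% of Flt3-only cells, a mean difference of 7.64 points with 3 plates higher. With the covariate, Cebpb was higher on all plates, so that 1 of 7 genes was higher and 1 lower, beside 13.8 and 8.51% of all assays.

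Hexokinase 3 (Hk3), an enzyme of the first step of glucose use, belonged to no list. It was detected in 16, 23.8, 12 and 16.7% of vwf-only cells against 35.5, 26.3, 48.1 and 38.1% of Flt3-only cells, a mean difference of -19.9 ± 13.8 points. Every vwf-only share was below every Flt3-only share. On 2-week plate 2 the difference was -2.51 points, and with the covariate the plate closest to 0 was at -0.94. Nfil3, a basic leucine zipper factor, differed by -4.01 points, and its pooled shares of 22.8% (15 to 32.2%) and 27.4% (19.5 to 36.4%) had overlapping intervals. With the classes set at Ct 18 its difference turned to 4.49 points, and with cells restricted to 1 cycle 1 plate was at 7.50.

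**Figure D2:**
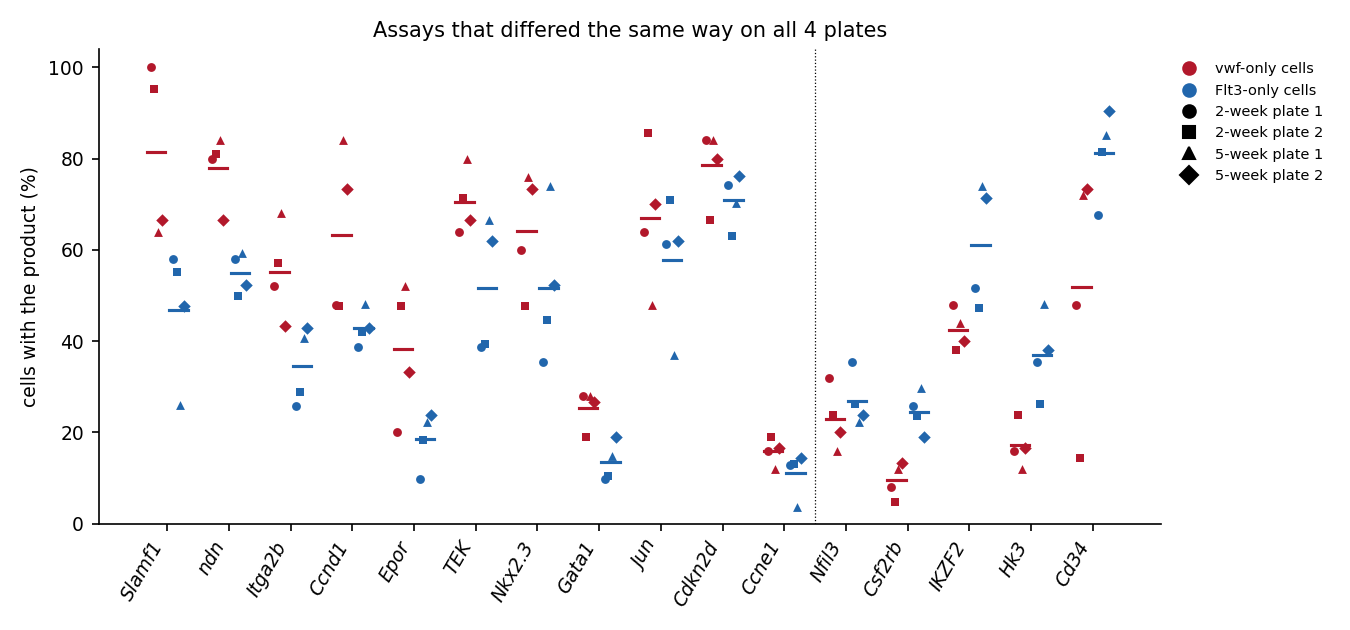
The vertical axis gives the percentage of cells with a product, for the 16 assays that differed the same way on all 4 plates; each symbol is 1 plate, red for vwf-only and blue for Flt3-only cells, and bars are means of 4 plates. Slamf1 in vwf-only cells lies between 64 and 100%, above the Flt3-only range of 25.9 to 58.1%, and Cd34 in vwf-only cells falls to 14.3% on 2-week plate 2.

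With the mean Ct of Actb and Gapdh as covariate, 13 assays (13.8%) were higher and 8 (8.51%) lower in vwf-only cells on all plates. Of the 11 higher assays 10, and of the 5 lower ones 5, were shared with the unadjusted comparison. Itga2b dropped out. Added on the vwf side were the myeloid factor Cebpb (8.41 points), Egr1 (11.2 points) and the homeobox gene Hoxb5 (10.1 points). Added on the Flt3 side were the G1 kinase gene CDK6 (-6.69 points), the inhibitor Cdkn2c (-9.68 points) and the growth-promoting transcription factor Myc (-9.72 points). The median over 94 assays was 1.83 points.

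**Figure D3:**
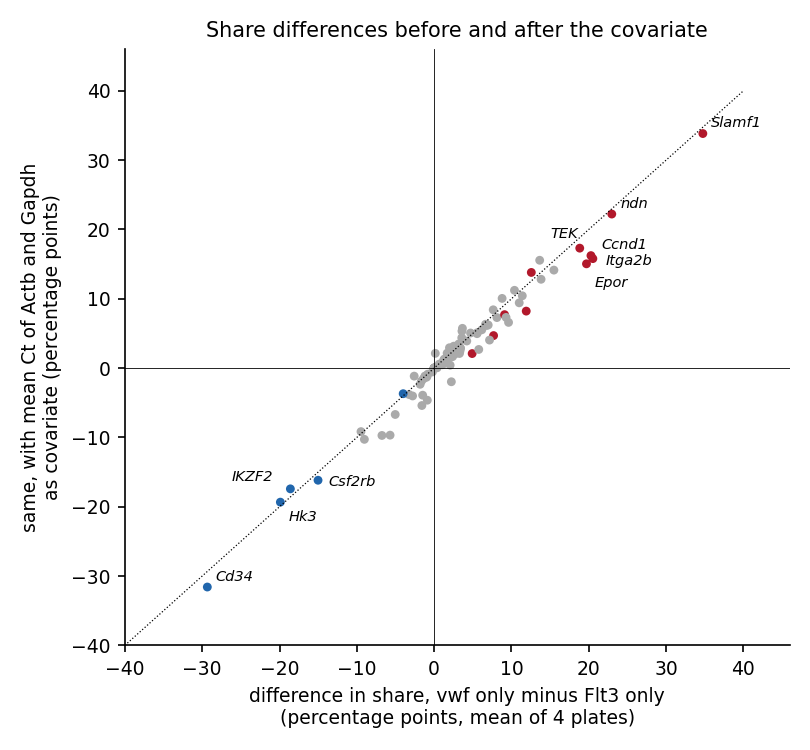
Each point is 1 of the 94 assays, with the difference in share on the horizontal axis and the same difference after the covariate on the vertical axis (percentage points, vwf-only minus Flt3-only cells, mean of 4 plates). Red and blue points differed the same way on all plates before the covariate, and Slamf1 (34.8 and 33.8) and Cd34 (-29.3 and -31.6) lie near the dotted line of equality.

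The amount of a transcript in the cells that had it was expressed on a log2 scale, by subtracting the assay's Ct from the cell's mean for Actb and Gapdh. This level was computed for 64 assays with at least 5 detecting cells per class on each plate. It was higher in vwf-only cells on all plates for 14 (21.9%) and lower for 6 (9.38%), with a median difference of 0.03. Levels of different assays are not compared with each other, since amplification differs between assays.

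Mllt3, a chromatin reader that supports stem cell maintenance, had the largest level difference among the 20 assays with 1 direction on all plates. In the vwf-only cells that had it, its level ran from -5.87 to 0.39 with a median of -1.85, and in the Flt3-only cells from -9.88 to 0.34 with a median of -2.99. Plate means were -2.35, -1.55, -2.22 and -2.05 in vwf-only and -3.10, -3.28, -2.90 and -3.39 in Flt3-only cells. Single cells overlapped widely, whereas all 4 vwf-only plate means lay above all 4 Flt3-only means. The difference in level was 1.13 ± 0.50 log2 (SD, n = 4 plates). Its share did not separate the classes, at 96 and 93.2% of cells.

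Cdkn1c had plate mean levels of -4.90, -4.86, -5.10 and -4.95 in vwf-only and -5.58, -5.66, -6.02 and -6.68 in Flt3-only cells, a difference of 1.03 ± 0.48. The inhibitor p57 that it encodes is known for keeping stem cells quiescent. Tgm2, a transglutaminase, had plate means of -2.80, -2.98, -1.96 and -2.21 against -3.84, -3.70, -2.73 and -3.0, a difference of 0.83 ± 0.14. Both kept their direction without centring, with differences of 1.16 and 1.05.

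Slamf1 and Itga2b were higher in level as well as in share. For Slamf1 the level ran from -8.24 to -1.78 (median -4.07) in 81 vwf-only cells and from -8.17 to -2.39 (median -4.97) in 56 Flt3-only cells, a difference of 0.84 ± 0.13. For Itga2b it ran from -11.9 to -2.84 (median -8.52) in 55 cells and from -11.7 to -5.84 (median -9.50) in 39 cells, a difference of 0.93 ± 0.51. The megakaryocyte and erythroid genes that were detected in nearly all cells differed here. Zfpm1, which encodes the GATA1 cofactor FOG1, differed by 0.72 ± 0.18, and the ETS factor Fli1 by 0.64 ± 0.32. In all, 4 of the 11 genes of this group with a level were higher on all plates, beside 21.9% of all 64 assays, and 0 were lower.

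Among stem cell associated genes, Fgd5 differed by 0.82 ± 0.41. Of 21 such genes with a level, 7 were higher and 1 was lower, beside 21.9 and 9.38% of all assays. Hlf was the lower one, with plate means of -1.62, -2.06, -2.15 and -2.15 in vwf-only and -1.28, -1.84, -0.99 and -1.58 in Flt3-only cells and a difference of -0.57 ± 0.42. Restricted to cells within 1 cycle, the Hlf difference was -0.45 with 1 plate at 0.061. Smaller positive differences were found for Cbx6 (0.44), Ccnd2 (0.37), Ccnd1 (0.22) and mettl7a1 (0.09).

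The other lower genes were Sfpi (-0.44), Myc (-0.37), Cdkn2c (-0.27), the lymphoid factor Ikzf1 (-0.23) and Cdkn2d (-0.18). The assay name Sfpi matched no gene symbol and is kept as deposited. These differences were small beside the spread of single cells, for example 1.10 and 1.22 log2 (SD over cells) for Sfpi. From the Ct as deposited, without centring, 25 of 64 assays (39.1%) were higher and 1 (1.56%) was lower in vwf-only cells, with a median of 0.25. Hlf was that 1 assay, at -0.36. On this scale Sfpi was at -0.20, Myc at -0.16, Ikzf1 at -0.026, Cdkn2c at 0.27 and Cdkn2d at 0.079. Centred instead on the broadly detected assays, Ccnd2, mettl7a1 and Cdkn2c no longer had 1 direction on all plates.

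**Figure D4:**
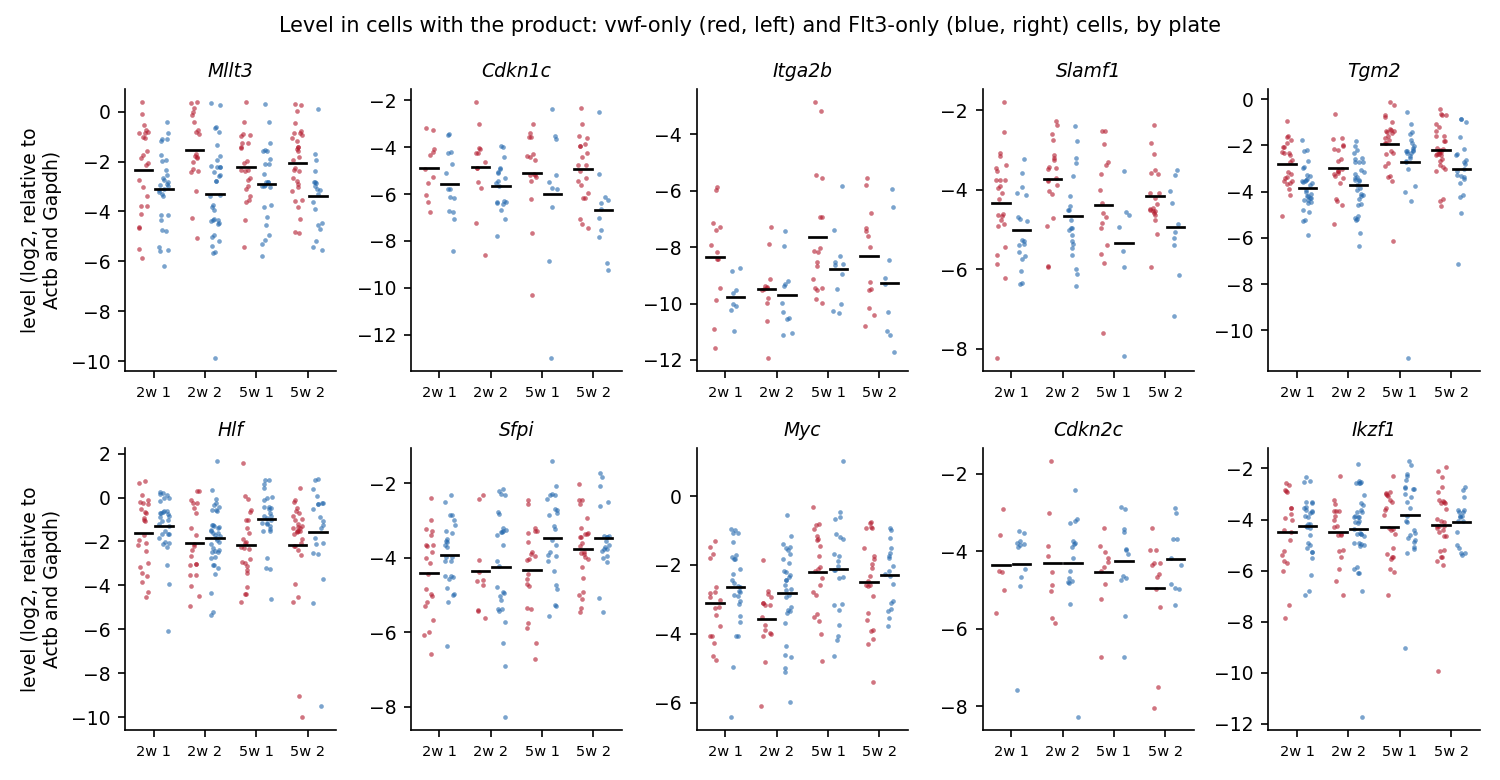
Each point is the level of 1 transcript in 1 cell that had its product (log2, relative to Actb and Gapdh), by plate, with vwf-only cells in red on the left, Flt3-only cells in blue on the right and black bars at the plate means. The top row shows 5 genes with higher means in vwf-only cells on each plate, such as Mllt3 (1.13), and the bottom row 5 with lower means, such as Hlf (-0.57).

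The cells with both products and with neither show how each difference went with vwf and with Flt3. Slamf1 was detected in 80.2% of vwf-only cells, 68.6% of cells with both (54.1 to 80.9%), 64.8% of cells with neither (53.9 to 74.7%) and 47.9% of Flt3-only cells. The share with vwf was higher on all 4 plates among cells without Flt3 (17.9 points) and among cells with Flt3 (22.1 points). The share with Flt3 was lower on all plates among cells without vwf (-16.9 points), and on 2 of 4 among cells with vwf (-12.7 points). Cd34 had the mirrored order, 54.5, 68.6, 69.3 and 80.3%, and its share with vwf was lower on all plates in both settings (-18.1 and -16.1 points).

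For other genes the order of the classes was different. Gata1 was detected in 25.7% of vwf-only cells (17.6 to 35.4%), against 7.84% of cells with both (2.18 to 18.9%), 12.5% with neither (6.41 to 21.3%) and 12.8% of Flt3-only cells (7.36 to 20.3%). Tek stood at 70.3% in vwf-only cells and at 52.9, 48.9 and 49.6% in the others. Csf2rb was detected in 9.90% of vwf-only cells, 33.3% of cells with both (20.8 to 47.9%), 18.2% with neither and 24.8% of Flt3-only cells. For Hk3 the shares in the same order were 16.8, 43.1 (29.3 to 57.8), 27.3 and 35.9%. Among cells with vwf, those with Flt3 as well had Hk3 more often on all 4 plates, by 26 points, and Csf2rb by 22.5 points. The class with both held as few as 6 cells on a plate, and 18 of its 51 Flt3 products were later than Ct 18. Of its cells 27.5% lay in well columns 1 to 6, against 54.5% of vwf-only cells, 55.7% of cells with neither and 51.3% of Flt3-only cells. The part of late products and of well position in these differences was not tested.

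**Figure D5:**
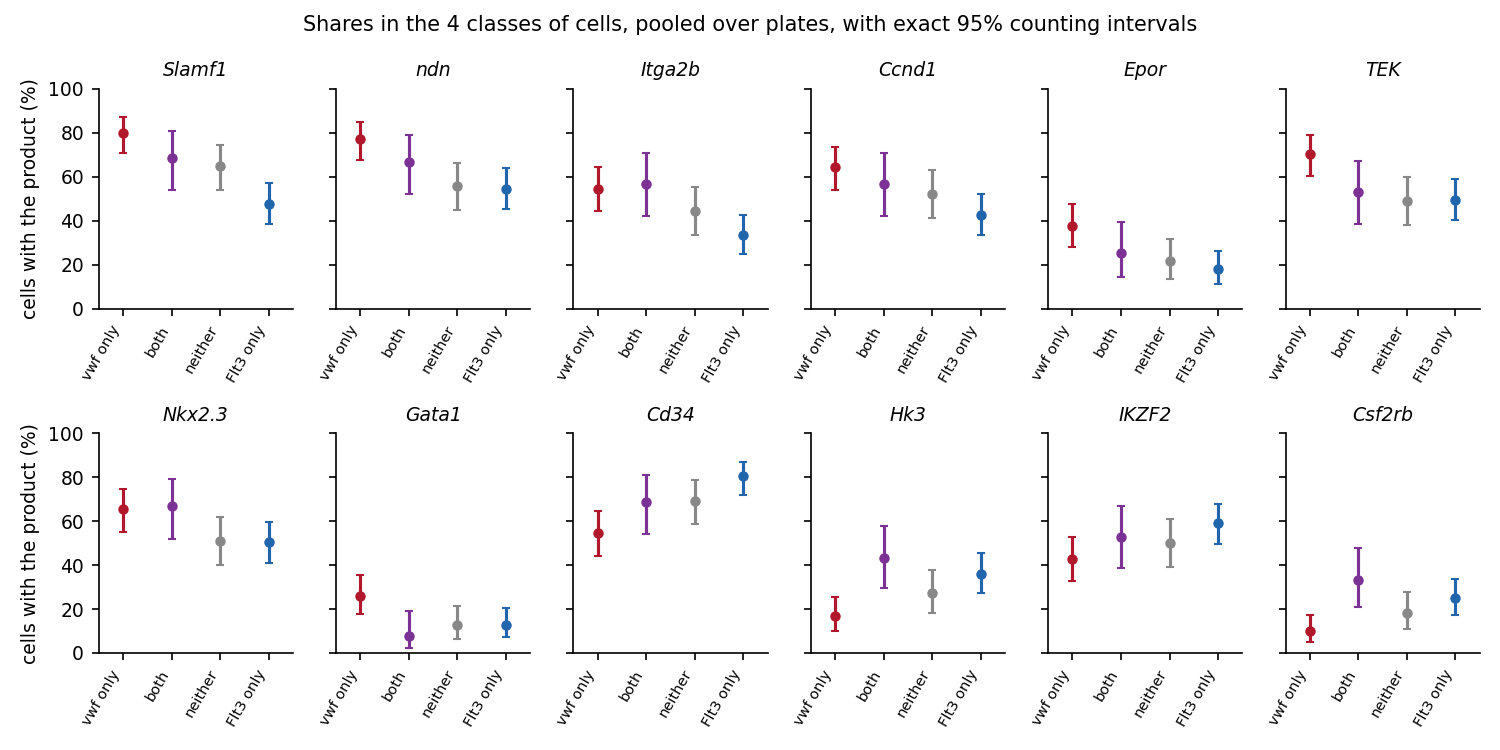
The vertical axis gives the percentage of cells with a product, pooled over plates, for 12 assays in vwf-only cells, cells with both (n = 51), cells with neither (n = 88) and Flt3-only cells; bars are exact 95% counting intervals. Slamf1 declines from 80.2 to 47.9% and Cd34 increases from 54.5 to 80.3%, with the other 2 classes between them.

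Within the vwf-only cells, those with an earlier vwf product (at or before the median Ct of their plate, 52 cells) were set against the other 49. The earlier cells had Itga2b more often on all 4 plates (65.4 against 42.9%), Ccnd1 (75 against 53.1%) and Tek (76.9 against 63.3%), while Slamf1 differed by 3.78, ndn by -5.60 and Nkx2.3 by -11.1 points with mixed directions. Nfil3 was detected less often in the earlier cells on all 4 plates (17.3 against 28.6%). The split uses the Ct of the gene that defined the class. The earlier cells also had a lower mean Ct of Actb and Gapdh on all plates, with differences from -0.86 to -0.29 cycles, and its part in these differences was not tested. Within the Flt3-only cells, the 60 with an earlier Flt3 product had Cd34 more often than the other 57 on all 4 plates (90 against 70.2%), and Hk3 (48.3 against 22.8%). The earlier Flt3-only cells had Tek less often on all 4 plates (41.7 against 57.9%). They also had Nfil3 less often, at 18.3 against 36.8%, on 3 of 4 plates, although Nfil3 leaned to Flt3-only cells. Their mean Ct of Actb and Gapdh differed by -0.02 cycles, lower on 2 plates and higher on 2. This split likewise uses the Ct of the class gene, and the assays of both splits were chosen on the same cells. The later part held the 13 Flt3 products later than Ct 18, which can be non-specific. What these late products add to the differences was not tested.

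The 16 assays were also counted per cell. Of the 11 vwf-leaning assays, a vwf-only cell had 6.37 ± 1.86 (SD over cells, range 2 to 10) and a Flt3-only cell 4.50 ± 1.80 (range 1 to 9). Of the 5 Flt3-leaning assays, they had 1.47 ± 0.74 and 2.27 ± 1.11. These assays were chosen on the same cells, so the gaps are a description. The ranges overlapped widely.

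Between the chase times, the direction was shared by definition for the 16 assays, and sizes differed for several. Ccnd1 differed by 7.40 points at 2 weeks and 33.2 at 5 weeks, and Cd34 by -43.5 and -15.2 points. Egr1 differed by 18 and 2.80 points and Cdkn1c by 5.37 and 22.3 points. With 2 plates per time these changes with time were not tested.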

How the data were processed

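Single bone marrow stem cells were lysed in plate wells, reverse transcribed, pre-amplified for 22 cycles, diluted 5-fold and read by 30 cycles of quantitative PCR with EvaGreen, a dye for double-stranded DNA, per the labels' protocols. The authors deposited 1 non-normalized score per assay and cell, the Ct, with 999 for a reaction without product; no source used here names the software and thresholds behind it. Since the dye reports any double-stranded product, a late product can be non-specific.

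Columns were matched to cells by title. No cell was removed, and 13989 of 34272 reactions had no product. Vwf and Flt3 set the classes and were left out of the comparison of the other 94 assays. The share of cells with a product at Ct 25 or below was compared within plates, also with a linear covariate (mean Ct of Actb and Gapdh). Level used detecting cells only, and Actb and Gapdh, which centre it, were left out of its 64 assays. Late means later than Ct 18. Differences are vwf-only minus Flt3-only cells. As the number of starting molecules is not known, intervals cover counting of cells only.

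Named genes were up to 10 per direction by share and up to 5 by level among the assays with 1 direction on all plates, up to 4 members of each list by absolute difference in share, and the reference and surface phenotype genes; Ccne1 and others outside it were added with their values known. The gene classes, lists and rules were chosen with earlier results of these data known, and the promoters, the 250-base window, the motifs and the leaving out of Actb and Gapdh from the levels after the values here were seen. Of the 96 assay names, 82 matched RefSeq symbols of GRCm38.p6 as printed, 12 in another case, 1 (Nkx2.3) without punctuation, and Sfpi did not match. Some genes that the rule took are counted but not reported by name here. Vwf, Ccnd1, Ikzf2 and Csf2rb had no promoter row. Steps were tested on simulated data, in which the all-plates rule missed some changed assays and took some unchanged ones. Alternatives were other Ct limits, other groupings, covariates, centrings and left-out plates. Python 3.11.15, pandas 2.3.3, numpy 2.4.6 and scipy 1.17.1 were used.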

Additional observations from a re-analysis of the deposited data

Results flagged for a closer look

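Differences on the 4 plates were screened for 1 plate far from the other 3, by Dixon's criterion, in 72 sets of 4 plates. Chance flags about 1 in 20 such sets, and the 4 plates span 2 chase times. For 5-week plate 2 the Slamf1 share difference was 19 points against 38.1 to 41.9 on the others, that of Itga2b 0.48 against 26.2 to 28.2, that of Csf2rb -5.71 against -18.9 to -17.6, and that of Ly6a 1.90 against -14.3 to -11.7. The Nkx2.3 level difference on that plate was 1.51 log2, against -0.0041 to 0.20 on the others. On 2-week plate 2 the Cd34 share difference was -67.3 points against -19.7 to -13.2, and that of Kit was 2.63 points against 0 on the others. Kit was detected in every cell of both classes on those other plates and in 97.4% of Flt3-only cells on this plate. Any difference on this plate would thus have been flagged, and the rate of 1 in 20 does not apply to Kit. On 5-week plate 1 the Cdt1 level difference was 1.20 log2 against -0.52 to -0.44, and that of Mdm2 0.35 against -0.32 to -0.22.

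For 4 of the differences of assays named by the rule, both 2-week plates lay on one side of 0 and both 5-week plates on the other, and the difference between times was not tested. The ndn level difference was -0.26 at 2 weeks and 0.92 at 5 weeks, a change of 1.18 log2. That of TEK was 0.59 and -1.07, a change of -1.65, and that of Ly6a -0.42 and 0.06, a change of 0.49. The Cbx6 share difference was 1.86 and -1.10 points, a change of -2.96. Other assays outside the rule also split this way, among them mettl7a1 in share, at -12.05 and 6.88 points.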

How the results depend on the processing

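All 16 assays kept their direction when any product counted as detected and at Ct 23. Leaving out a plate could not change it, since the 16 were chosen for 1 direction on all 4 plates. Counts higher and lower were 11 and 5; leaving out 1 plate gave 17 to 20 higher and 6 to 8 lower, since fewer plates must agree, and the 2-week plates alone gave 34 and 13, the 5-week plates alone 26 and 11. The Actb and Gapdh covariate gave 8 lower. With cells within 1 cycle of the plate's median Actb and Gapdh Ct (76 and 96 cells), 7 assays kept 1 direction on all plates and 9 did not (Itga2b, Ccnd1, TEK, Nkx2.3, Jun, Cdkn2d, Ccne1, IKZF2 and Nfil3), all with the same mean sign; of levels, Itga2b, Ccnd1, Fgd5, mettl7a1, Hlf, Myc, Ikzf1 and Cdkn2d did not. Allowing for each cell's number of detected assays, 11 kept it and 5 did not (Itga2b, Nkx2.3, Cdkn2d, IKZF2 and Ccne1). Counting only compared products at Ct 18 or below, TEK, Nkx2.3, Gata1 and Jun lost it. With groups set at Ct 18 (33 cells then had both), Itga2b and Jun lost it and Nfil3 reversed to 4.49 points. Of levels, 14 were higher and 6 lower; without 1 plate the counts were 14 to 20 higher and 8 to 12 lower, at 2 weeks alone 26 and 15, at 5 weeks alone 17 lower, within 1 cycle 3 lower, and uncentred 25 and 1. Reversed levels were Cdkn2d (0.079 uncentred, 0.52 over all cells with undetected reactions at Ct 25), Cdkn2c (0.27 uncentred) and mettl7a1 (-0.27 over all cells). Pooling the cells of all plates gives 1 value per assay and so no count over plates. Every difference is taken within a plate. No paired analysis was possible because, beyond the plate, the labels give no replicate numbers that pair cells. Each plate's share rests on 21 to 38 cells per class.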

Other observations

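Several genes were detected in a larger share of vwf-only cells on 3 of the 4 plates and so have no shared direction. Trib3 (assay trib3), a stress-response pseudokinase, was found in 32.7% of vwf-only and 19.7% of Flt3-only cells, a mean difference of 13.7 points, and 58.9% of its products were late. Mdm2, which drives p53 degradation, was found in 68.3 and 55.6%, Ezh1, a Polycomb methyltransferase, in 79.2 and 66.7%, and pbx3, a homeobox gene, in 37.6 and 27.4%. Cebpa had a level difference of -1.35 log2, large beside most others, but its plates ran from -2.41 to 0.21.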
